A study of Arabidopsis thaliana with 4 samples.

Results

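Clade A protein phosphatases of the 2C type (PP2Cs) are the negative regulators at the core of abscisic acid (ABA) signalling, the hormone pathway that holds back germination. Transcript levels of 8 of the 9 Arabidopsis members were followed among the 23932 features of the deposited expression table. They are ABI1 (AT4G26080), ABI2 (AT5G57050), HAB1 (AT1G72770), HAB2 (AT1G17550), PP2CA (AT3G11410), HAI1 (AT5G59220), HAI2 (AT1G07430) and HAI3 (AT2G29380). The members were found by gene symbol and locus code, not by their values, and AHG1 was not analysed here. All 8 had at least 1 RPKM (reads per kilobase of transcript model, scaled to library size) in both columns of at least 1 sample, the filter that left 22646 genes for the comparisons. The study set Col-0 wild-type seedlings against seedlings overexpressing the zinc finger gene ZFP3 (ZFP3ox), with 1 sample for each of 4 groups. Wild-type control and ZFP3ox control were germinated on 5 µM estradiol and collected at 36 h. Wild-type ABA and ZFP3ox ABA were germinated on 5 µM estradiol plus 2.5 µM ABA and collected at 84 h, when per the labels the radicle had reached the same stage. Estradiol was therefore common to all groups, and ABA and harvest time cannot be told apart in any comparison of ABA with control. The labels name neither the promoter that drives ZFP3 nor the number of lines or seed batches. Every sample had 2 columns of RPKM values, called column set 1 and column set 2 here, which the labels do not explain and which were counted as 1 replicate.

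In the absence of ABA these phosphatases bind SnRK2 protein kinases and keep them dephosphorylated and inactive. ABA bound to PYR/PYL receptors closes the phosphatase active site, the kinases are released, and they phosphorylate ABF and ABI5 transcription factors that act on ABA-responsive genes. The phosphatase genes are themselves known as ABA-responsive, so that the pathway carries a brake on its own output. ABI1, ABI2, HAB1 and HAB2 form one branch of the clade, and PP2CA, AHG1, HAI1, HAI2 and HAI3 the other. PP2CA is also known for its action on the anion channel SLAC1, and the HAI genes for their response to drought.

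Promoters of ABA-responsive genes often hold the ABA-responsive element, with the core ACGTG, to which ABF and ABI5 factors bind. The 300 bases before each annotated gene start were therefore read from the RefSeq TAIR10.1 genome, for the 8 members and for 22417 genes in all. The core ACGTG, searched on both strands, was found upstream of 6 of 8 members and in 26.0% of all windows. PP2CA and HAI2 held 5 matches each, HAB2 and HAI3 2 each, ABI1 and HAB1 1 each, and ABI2 and HAI1 none. The longer forms ACGTGGC and ACGTGTC, which contain the core, were found upstream of ABI1, HAB1, PP2CA and HAI2, which is 4 of 8 members against 7.4% of all windows. The palindrome CACGTG, which counts as 2 overlapping cores, was found upstream of PP2CA alone among the members and in 7.5% of all windows. The windows of HAI3, PP2CA, ABI2 and HAI1 are shown, each 5′ to 3′ on the strand of its gene, with ACGTG or its complement in capitals. These members are past 2-fold with ABA in column set 1 in at least 1 genotype. In column set 2 the log2 ratios of PP2CA, ABA over control, were -0.287 in wild type and -0.053 in ZFP3ox. HAB1, past 2-fold in column set 2 alone (1.299 in ZFP3ox), is not shown. HAI2, with 5 cores, was within 2-fold in both column sets and both genotypes. The HAI3 window lies at chr2:12608375-12608674 on the plus strand, that of PP2CA at chr3:3585851-3586150 on the minus strand, that of ABI2 at chr5:23086822-23087121 on the plus strand and that of HAI1 at chr5:23896940-23897239 on the minus strand.
HAI3: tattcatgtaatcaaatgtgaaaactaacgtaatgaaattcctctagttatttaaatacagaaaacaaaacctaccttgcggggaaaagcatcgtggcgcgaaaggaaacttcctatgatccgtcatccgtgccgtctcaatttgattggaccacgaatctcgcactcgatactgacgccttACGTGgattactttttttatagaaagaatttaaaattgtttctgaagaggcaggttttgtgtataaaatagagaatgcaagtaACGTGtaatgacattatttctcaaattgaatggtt
PP2CA: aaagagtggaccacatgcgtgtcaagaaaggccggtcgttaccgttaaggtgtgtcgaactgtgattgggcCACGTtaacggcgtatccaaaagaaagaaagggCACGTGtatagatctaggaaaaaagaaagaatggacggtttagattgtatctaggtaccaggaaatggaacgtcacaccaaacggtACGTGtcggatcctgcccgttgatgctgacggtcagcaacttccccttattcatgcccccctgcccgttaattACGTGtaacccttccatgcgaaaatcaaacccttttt
ABI2: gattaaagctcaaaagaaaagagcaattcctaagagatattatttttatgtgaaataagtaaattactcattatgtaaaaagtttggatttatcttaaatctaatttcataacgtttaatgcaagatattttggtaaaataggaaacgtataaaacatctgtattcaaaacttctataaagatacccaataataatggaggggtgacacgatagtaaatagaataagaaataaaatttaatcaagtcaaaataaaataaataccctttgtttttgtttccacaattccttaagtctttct
HAI1: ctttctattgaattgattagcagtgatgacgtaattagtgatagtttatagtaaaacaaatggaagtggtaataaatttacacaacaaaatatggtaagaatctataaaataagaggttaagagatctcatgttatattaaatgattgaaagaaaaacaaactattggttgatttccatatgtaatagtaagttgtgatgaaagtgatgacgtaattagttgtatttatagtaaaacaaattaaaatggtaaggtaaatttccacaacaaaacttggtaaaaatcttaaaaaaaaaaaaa
The HAI3 window has its cores 118 to 114 and 35 to 31 bases before the gene start. The PP2CA window has them between 229 and 33 bases before the start, whereas the ABI2 and HAI1 windows hold no capitals. These are letter matches within a fixed window, and no binding was measured.

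**Figure D1:**
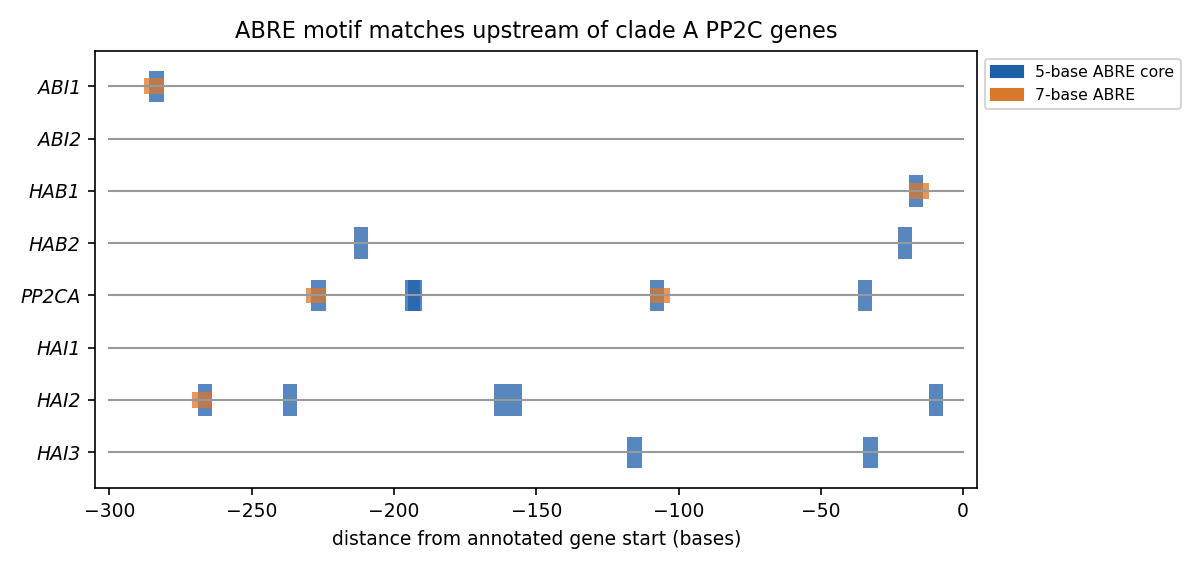
Positions of matches to the ABA-responsive element in the 300 bases before the annotated start of each of the 8 genes, with distance from the start in bases on the horizontal axis. Tall blue blocks mark the 5-base core and short orange blocks the 7-base forms; PP2CA and HAI2 carry 5 core matches each, while ABI2 and HAI1 carry none.

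Among all features the members ranged from percentile 14.3, HAI3 in ZFP3ox control in set 1, to percentile 91.0, HAI1 in ZFP3ox ABA in set 1. ABI1, known like ABI2 from a dominant mutant that germinates on ABA, lies on the minus strand at chr4:13219915-13222376. It had the highest mean rank among the members over the 8 columns, 2.06, and never stood below rank 3. In column set 1 the wild-type seedlings had 38.01 RPKM without and 31.58 with ABA, and the ZFP3ox seedlings 25.07 without and 32.12 with ABA. Column set 2 gave 5.33, 6.26, 5.37 and 8.97 in the same order. The sets thus differ in scale, the median feature lying between 10.45 and 15.58 RPKM in set 1 and between 3.26 and 4.19 in set 2, so levels are compared only within a set. Below ABI1 the mean ranks were 3.38 for HAB2, 3.81 for PP2CA, 4.19 for HAI1, 5.19 for ABI2, 5.25 for HAB1, 5.75 for HAI3 and 6.38 for HAI2. The ranges of rank over the columns overlapped between all neighbours in this order. The highest member exceeded the lowest between 2.1 and 6.9 times, depending on the column, on the RPKM scale, which is per transcript length. HAI3 was the lowest of the 8 in both wild-type control columns and the highest in both wild-type ABA columns. In column set 1 the read steps in the low values put the members at about 31 to 336 reads per sample, and the depth behind column set 2 is unknown.

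**Figure D2:**
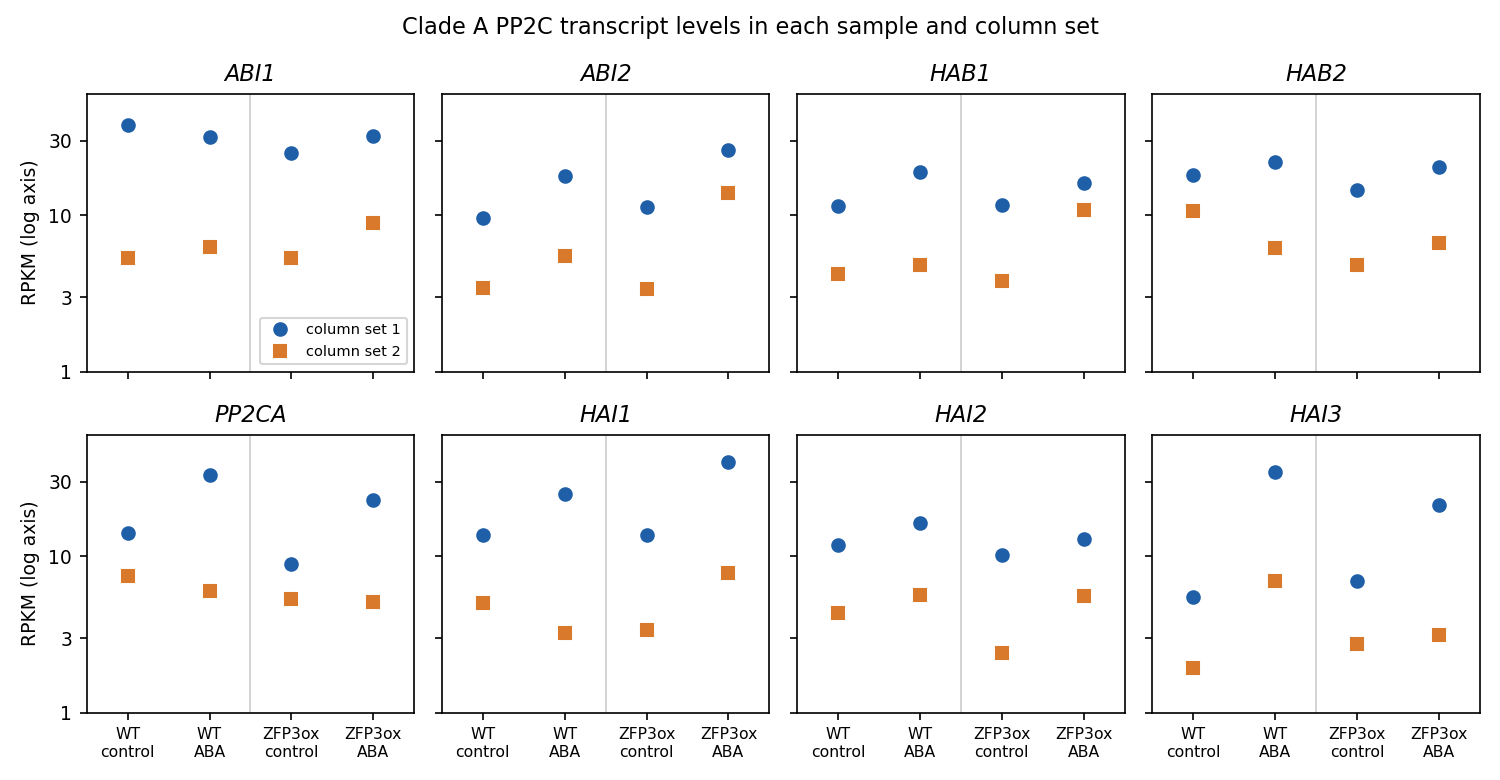
RPKM (log axis) of each of the 8 phosphatase genes in the 4 samples, the wild-type (WT) pair left and the ZFP3ox pair right in each panel; circles are column set 1 and squares column set 2. HAI3 goes from 5.51 to 34.33 RPKM in set 1 and from 1.92 to 7.0 in set 2 between the wild-type samples.

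HAI3 had the largest difference with ABA in wild type. This gene (chr2:12608675-12610350, plus strand, 1495 bp of exons in 3 blocks) belongs to the branch known for drought-responsive members. In column set 1 it had 5.51 RPKM without and 34.33 with ABA in wild type, and 6.99 without and 21.25 with ABA in ZFP3ox. In column set 2 the wild-type values were 1.92 and 7.0 RPKM, and the ZFP3ox values 2.74 and 3.13. Both ABA values lay above both control values in each set, with a narrow gap between the ZFP3ox samples in set 2. Among all features HAI3 moved from percentile 20.1 to 88.5 in set 1 and from 22.9 to 71.3 in set 2 between the wild-type samples. Its log2 ratios of RPKM + 1, ABA over control in wild type, were 2.44 and 1.45 in sets 1 and 2. In ZFP3ox they were 1.48 and 0.143. HAI3 is among the 803 genes of the authors' deposited table of genes higher with ABA. It has a signed fold there of 4.94 in wild type and one of 2.09 in ZFP3ox. These folds come from the same samples. The other members were looked up there by 1 name field only, so no count of members is given.

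In wild type, 1 of 8 members, HAI3, was at least 2-fold higher with ABA in the mean of the sets, beside 4.65% of all genes. None was at least 2-fold lower, beside 2.86%. HAI3 was also past 2-fold in each set, which held for 1.46% of all genes. ABI2, HAB1, HAI2 and HAI3 had ratios above 0 in both sets, which is 4 of 8 beside 34.8% of all genes. None was below 0 in both sets, beside 18.2% of all genes. After median-of-ratios scaling the same 4 stood above 0, beside 26.7% of all genes under that scaling, and HAB2 came out below 0 in both sets, 1 of 8 beside 26.9%. The median ratio of the 8 members was 0.393 and that of all genes 0.15, or 0.242 and 0.003 after that scaling. ABI2 had RPKM of 9.63 in control and 17.89 with ABA in set 1, and 3.41 and 5.52 in set 2. Its log2 ratios were 0.83 and 0.56. HAB1, the ABI1 homologue known to restrain ABA responses in seeds, had ratios of 0.67 and 0.16, and HAI2 ratios of 0.44 and 0.31.

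The other 4 members had opposite signs in the column sets in wild type. PP2CA (chr3:3583782-3585850, minus strand) had 14.16 RPKM in wild-type control and 33.21 in wild-type ABA in set 1, but 7.53 and 5.99 in set 2. Its log2 ratios were thus 1.17 and -0.29. HAI1 (chr5:23894404-23896939, minus strand) had 13.62 and 24.92 RPKM in set 1 and 5.04 and 3.22 in set 2, with ratios of 0.83 and -0.52. For both genes the set 1 samples moved up with ABA and the set 2 samples down, so no direction is given for them in wild type. HAB2 had ratios of 0.26 and -0.69, and ABI1 had -0.26 and 0.20. Over all genes the median gap between the ratios of the sets was 0.616 log2 units in this comparison, and over the members 0.731.

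**Figure D3:**
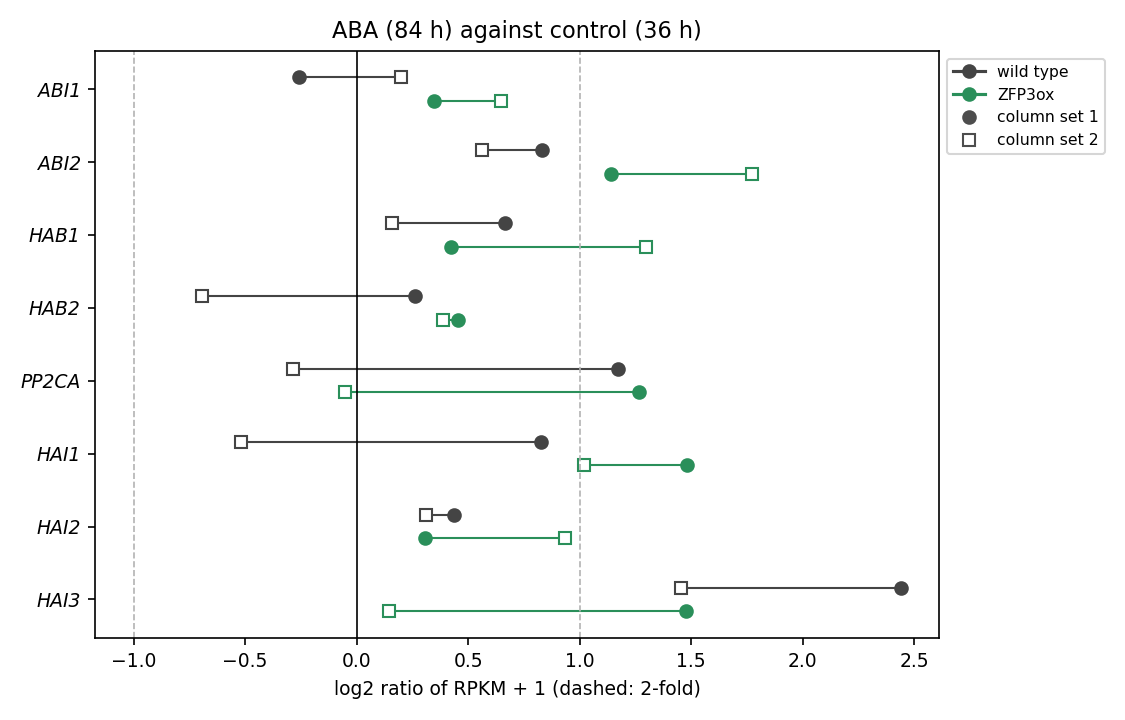
Log2 ratio of RPKM + 1, ABA at 84 h over control at 36 h, for each phosphatase gene in wild type (grey) and ZFP3ox (green), with filled circles for column set 1, open squares for set 2 and a line joining the sets of a genotype; dashed lines mark 2-fold. In wild type HAI3 alone passes 2-fold in both sets, and in ZFP3ox ABI2 and HAI1 do.

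In ZFP3ox, ABI2 and HAI1 were the members at least 2-fold higher with ABA in the mean of the sets, 2 of 8 beside 4.55% of all genes. None was at least 2-fold lower, beside 2.23%. ABI2 and HAI1 passed 2-fold in each set, which held for 1.02% of all genes. ABI2 (chr5:23087122-23089631, plus strand) had 11.35 RPKM without and 26.24 with ABA in set 1, and 3.37 and 13.91 in set 2. Its log2 ratios were 1.14 and 1.77. HAI1 had 13.66 and 39.97 RPKM in set 1 and 3.37 and 7.86 in set 2, with ratios of 1.48 and 1.02. HAI1 was the highest member of the clade in ZFP3ox ABA in set 1, and ABI2 the highest in set 2. HAB1 (chr1:27389948-27393327, plus strand) had 11.70 and 16.03 RPKM in set 1 and 3.79 and 10.79 in set 2, with ratios of 0.42 and 1.30. ABI1, HAB2 and HAI2 had smaller ratios, between 0.31 and 0.94 in either set. PP2CA again divided by set, with 8.93 and 22.91 RPKM in set 1 and 5.37 and 5.14 in set 2. Its ratios were 1.27 and -0.053.

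All members but PP2CA had ZFP3ox ratios above 0 in both sets, 7 of 8 beside 45.3% of all genes, and none was below 0 in both, beside 17.0%. After median-of-ratios scaling the count above 0 was 6 of 8 beside 29.9% of all genes, since the set 2 ratio of HAI3 became -0.022, and none was below 0 in both sets, beside 28.7%. ABI2, HAB1, HAI2 and HAI3 were above 0 in both sets and both genotypes, 4 of 8 beside 19.6% of all genes. The median over the 8 members was 0.716 in ZFP3ox and that over all genes 0.212, or 0.526 and 0.021 after scaling. Seed and seedling markers differed between the same samples. The summed RPKM of 6 seed and embryo marker genes in set 1 was 118.67 without and 2368.15 with ABA in wild type, and 117.66 without and 716.81 with ABA in ZFP3ox. In the mean of the sets all 6 were at least 2-fold higher with ABA in wild type and 4 of 6 in ZFP3ox. CRC (1.46 and 0.52) and PAP85 (1.99 and -0.50) were not in ZFP3ox, though past 2-fold in set 1. The 5 green seedling markers summed to 2130.57, 211.70, 2938.77 and 1463.23 RPKM in the same order, and all 5 were at least 2-fold lower with ABA in both genotypes. The same sums in set 2 were 26.99, 397.04, 24.44 and 381.56 for the seed markers and 1603.09, 119.79, 1681.22 and 463.93 for the green markers. In set 2 the gene OLEO2 made up 310.39 RPKM of the ZFP3ox ABA seed sum. The other 5 seed markers summed to 298.61 RPKM in wild-type ABA and 71.17 in ZFP3ox ABA in that set. The endosperm marker MAN7 had ABA ratios of 2.15 and 1.95 in wild type, then 0.85 and 1.67 in ZFP3ox, and EPR1 was within 2-fold in both. Of 4 root markers, EXPA7 (-1.89 and -0.28) and EXPA18 (-2.20 and -0.36) were at least 2-fold lower with ABA in wild type in the mean of the sets. PRP3 (-0.56 and 1.80) and COBL9 (-0.058 and 0.006) were not, and none was in ZFP3ox. The root marker sum in wild type went from 100.01 to 39.93 RPKM in set 1 and from 17.40 to 26.14 in set 2. Of 3 guard cell markers none was 2-fold apart with ABA in wild type, and KAT1 was higher in ZFP3ox (1.86 and 0.24). No marker was at 0 in any column. The part of these markers in the phosphatase ratios was not tested, and in whole seedlings fewer cells of a type and less RNA per cell cannot be told apart.

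Between genotypes no member passed 2-fold in the mean of the sets. Without ABA, 0 of 8 members was 2-fold apart between ZFP3ox and wild type, beside 2.53% of all genes. The largest mean ratio was that of HAB2 (chr1:6034270-6037398, plus strand), -0.65. Its RPKM was 18.21 in wild-type control and 14.45 in ZFP3ox control in set 1, and 10.58 and 4.84 in set 2. PP2CA had ratios of -0.61 and -0.42 and HAI2 (chr1:2280746-2282828, minus strand) ratios of -0.19 and -0.64. HAB2, PP2CA and HAI2 were thus below 0 in both sets, 3 of 8 beside 20.5% of all genes, and HAI3 was above 0 in both, 1 of 8 beside 21.0%. After median-of-ratios scaling HAI1 was below 0 in both sets too, which made 4 of 8 beside 25.2% of all genes, and HAI3 was above, beside 21.9%. ABI2 and HAB1 were nearest to equal levels, with mean ratios of 0.10 and -0.047.

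With ABA, 0 of 8 members was 2-fold apart between the genotypes in the mean of the sets, beside 4.73% of all genes. HAI1 had 24.92 RPKM in wild-type ABA and 39.97 in ZFP3ox ABA in set 1, and 3.22 and 7.86 in set 2, with ZFP3ox over wild-type ratios of 0.66 and 1.07. ABI2 had ratios of 0.53 and 1.19. HAI3 went the other way, with ratios of -0.67 and -0.95. ABI1, ABI2 and HAI1 were above 0 in both sets, 3 of 8 beside 31.3% of all genes, and PP2CA, HAI2 and HAI3 were below 0 in both, 3 of 8 beside 22.3%. Median-of-ratios scaling left ABI2 and HAI1 above 0 in both sets, 2 of 8 beside 25.8% of all genes under that scaling, and PP2CA and HAI3 below, 2 of 8 beside 28.1%. The scaled counts are thus near the background. Among the marker genes in the same comparison, 5 of 6 seed markers were at least 2-fold lower in ZFP3ox in the mean of the sets. Likewise 4 of 5 green markers were at least 2-fold higher, and the part of these markers was not tested.

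**Figure D4:**
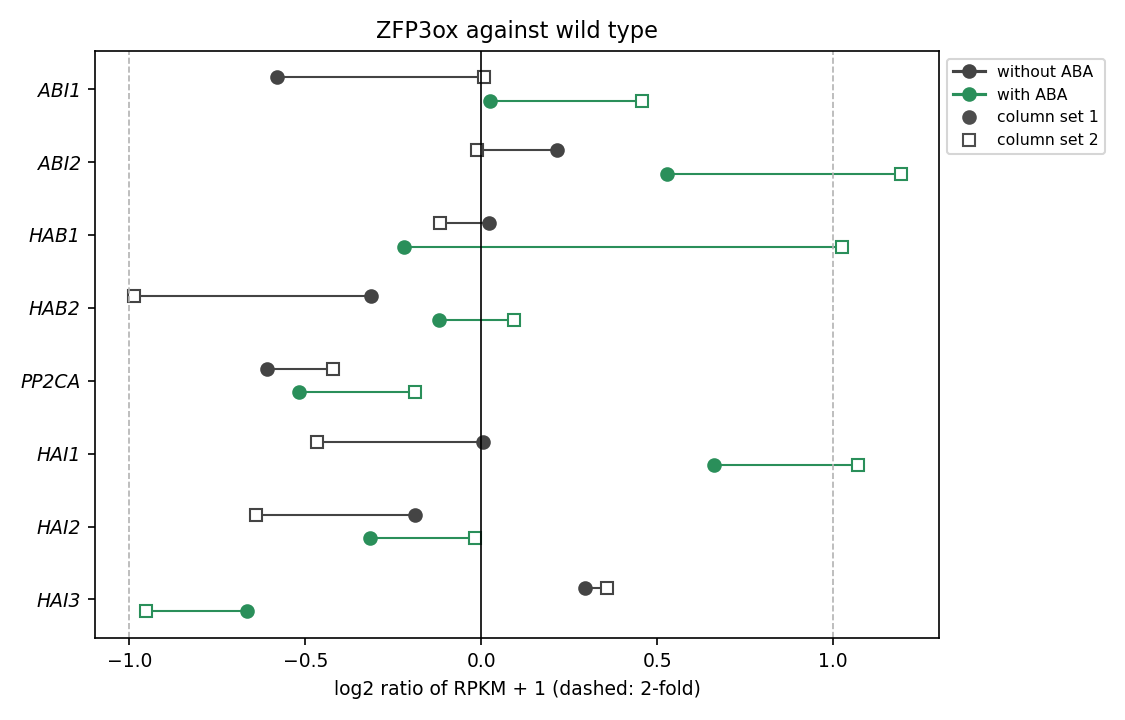
Log2 ratio of RPKM + 1, ZFP3ox over wild type, for each phosphatase gene without ABA at 36 h (grey) and with ABA at 84 h (green), drawn as in the plot of ABA ratios. HAI3 is above 0 without ABA (0.30 and 0.36) and below 0 with ABA (-0.67 and -0.95).

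The difference between the ABA ratios, ZFP3ox minus wild type, separated HAI1 from HAI3. For HAI1 it was 0.66 in set 1 and 1.54 in set 2, with a mean of 1.10, and for HAI3 it was -0.96 and -1.31, with a mean of -1.14. The ABA ratio was thus higher in ZFP3ox for HAI1 and higher in wild type for HAI3, in each set. ABI1, ABI2, HAB2, PP2CA and HAI1 were above 0 in both sets, 5 of 8 beside 27.7% of all genes, and HAI3 alone was below, 1 of 8 beside 24.4%. No member passed 4-fold, the size used for this difference, beside 0.521% of all genes. The median was 0.488 over the members and 0.044 over all genes. With 1 sample per group none of these pairwise ratios has a replicate check or a p-value.

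The 4 samples allow a test of the ABA effect averaged over the genotypes, set against the departure from additivity in these samples. With limma and Benjamini-Hochberg adjustment over 22646 genes, 0 of 8 members passed an adjusted p of 0.05, beside 0.287% of all genes called higher and 0.362% called lower. HAI3 had an averaged log2 effect of 1.38 with a standard error of 0.309 and a limma adjusted p of 0.104. Its adjusted p ran from 0.0438 to 0.732 over the alternative settings, and the low end came from median-of-ratios scaling, where HAI3 was called. The HAI3 effect was 1.96 in set 1 alone and 0.80 in set 2 alone. ABI2 had an effect of 1.08 ± 0.269 (SE) and a limma adjusted p of 0.130, with a range of 0.0913 to 0.533. ABI2, HAB1 and HAI3 were below an unadjusted p of 0.05, 3 of 8, all higher with ABA, beside 13.3% of all genes higher and 5.74% lower. HAI1, HAB1, PP2CA and HAI2 had effects of 0.70, 0.64, 0.53 and 0.50, with limma adjusted p from 0.230 to 0.291. By column set, the PP2CA effect was 1.22 in set 1 alone and -0.17 in set 2 alone, and that of HAI1 was 1.15 and 0.25. ABI1 and HAB2 had effects of 0.23 and 0.10, each less than its standard error. For the genotype effect averaged over treatments 0 of 8 members passed by limma, beside 0.00442% of all genes in each direction, and 0 of 8 had an unadjusted p under 0.05, beside 4.27% higher and 3.02% lower. Genotype effects ran from -0.43 for PP2CA to 0.48 for ABI2.

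Other components of the pathway were read on the same scale. The 14 PYR/PYL receptor genes encode the ABA receptors that inhibit the phosphatases. None was 2-fold apart in the mean of the sets with ABA in wild type or between genotypes without ABA. Single sets passed 2-fold both ways, as for PYR1 (1.37 and 0.19) and PYL4 (-0.39 and -1.40) with ABA in wild type. Between genotypes without ABA, so did PYL12 (1.20 and 0.23) and PYL13 (-1.29 and -0.33). With ABA in ZFP3ox 1 receptor gene was higher in the mean of the sets, PYL3, with ratios of 1.83 and 0.25. Between genotypes with ABA, PYL10 (1.20 and 1.36) and PYL3 (1.97 and 0.43) were higher in ZFP3ox, and 1 was lower in the mean of the sets (PYR1, -2.23 and 0.049, with opposite signs; named after its values were seen). The median receptor ratio with ABA was -0.096 in wild type and -0.13 in ZFP3ox. Of the 10 genes of the SnRK2 family, which holds the kinases that the phosphatases inactivate, none was 2-fold apart in any of the 4 comparisons. The median SnRK2 ratio with ABA was 0.10 in wild type and 0.092 in ZFP3ox. Of 5 measured genes for ABA transcription factors, ABI5, a bZIP factor of germinating seeds, had wild-type ABA ratios of 2.75 and 0.76 and ZFP3ox ratios of 1.43 and 1.84. ABI4 had 1.59 and 1.0 in wild type, and ABF4 had 0.40 and 2.26 in ZFP3ox. The phosphatase median thus lay above those of the receptors and kinases with ABA in both genotypes, which is a description of these samples and not a test. The medians of the ABA transcription factors and of the ABA-responsive markers were 0.181 and 0.19 in wild type. In ZFP3ox they were 0.881 and 0.747, both above the phosphatase median of 0.716. Of 54 other PP2C genes kept, wild type had 2 at least 2-fold higher and 2 at least 2-fold lower with ABA in the mean of the sets. ZFP3ox had 3 higher and none lower. Their median ratios were 0.082 and 0.216, beside 0.393 and 0.716 for the clade A members.

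**Figure D5:**
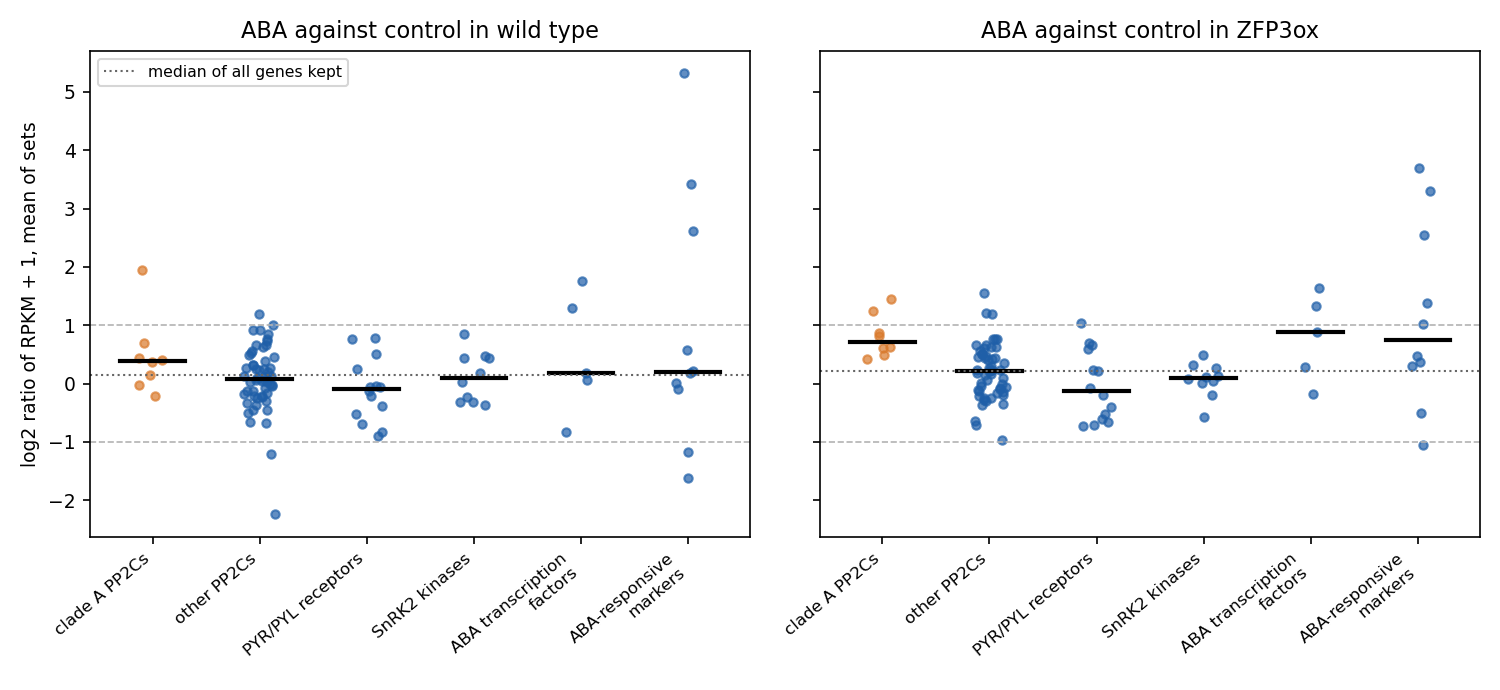
Log2 ratio of RPKM + 1, ABA over control, mean of the column sets, in wild type (left) and ZFP3ox (right) for clade A members (orange) and other gene groups (blue); each point is a gene, bars are group medians, the dotted line is the median of all genes kept and dashed lines mark 2-fold. The clade A median is 0.393 in wild type and 0.716 in ZFP3ox, and the receptor median is -0.096 and -0.13. In ZFP3ox the medians of the ABA transcription factors (0.881) and ABA-responsive markers (0.747) lie above that of clade A.

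Among 12 measured partners and regulators of clade A PP2Cs, 1 was past 2-fold with ABA in the mean of the sets in ZFP3ox and none in wild type. This gene, AT5G22090, annotated as a FAF-like protein, had 226.02 RPKM without and 79.83 with ABA in wild type, and 69.12 without and 235.79 with ABA in ZFP3ox, in set 1. In set 2 the values in the same order were 37.36, 27.81, 28.33 and 158.78. Its ABA ratios in ZFP3ox were 1.76 and 2.45, and the difference of its ABA ratios between the genotypes was 3.25 and 2.86. Its ratios of ZFP3ox over wild type were -1.695 and -0.387 without ABA and 1.551 and 2.471 with ABA. DOG1, the dormancy protein known to bind AHG1, had wild-type ABA ratios of 1.35 and 0.003 and ZFP3ox ratios of 0.28 and 0.26. SLAC1, the guard cell anion channel on which PP2CA acts, had wild-type ratios of 0.54 and 0.62 and ZFP3ox ratios of 0.49 and 0.75.

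The members differed among themselves in their pattern across the samples. Likeness was measured as the Euclidean distance over the 8 columns between log2(RPKM + 1) values centred within each column set, so that it is a distance in pattern and not in level. The closest members were ABI1 and HAI2 at 0.78, HAB2 and HAI2 at 0.833, and ABI2 and HAB1 at 0.84. By nearness among all genes, HAI2 held rank 1843 for ABI1 and rank 3165 for HAB2, and HAB1 held rank 159 for ABI2. In distance HAI3 stood farthest from the rest, with PP2CA as its closest member at 1.58 and ABI1 as its most distant at 2.34. By nearness among all genes, however, PP2CA held rank 1183 for HAI3. The distance grows with the size of a gene's changes, and its median to all genes ran from 1.205 for HAB2 to 2.258 for HAI3. For each member another gene of the 22646 lay closer than any other member, which so many candidates make near certain. A nearest gene is the smallest distance over all genes, so its distance is a description and not a test of likeness. The gene nearest to HAI3 was AT4G25580, annotated as a CAP160 protein, at a distance of 0.382. Its RPKM in wild type was 6.21 without and 36.46 with ABA in set 1 and 3.27 and 9.94 in set 2, and in ZFP3ox it was 7.23 and 25.08 in set 1 and 2.95 and 4.54 in set 2. The gene nearest to ABI2 was AT5G61560, a U-box domain protein kinase, at 0.378, and that nearest to HAI1 was AT5G46990, an invertase or pectin methylesterase inhibitor, at 0.232. PP2CA lay nearest to AT1G33110, a MATE efflux family gene, at 0.362. ABI1 lay nearest to AT5G10810 at 0.173, HAB1 to AT1G06720 at 0.15, HAB2 to AT1G13000 at 0.124 and HAI2 to AT3G15220 at 0.212.

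The sample labels and the identity of the members were checked on the same columns. ZFP3 had 175.59 and 85.42 RPKM in the ZFP3ox samples and 8.66 and 15.66 in the wild-type samples in set 1, and 40.76 and 44.76 against 1.14 and 1.01 in set 2. In the mean of the sets, of 10 measured ABA-responsive marker genes 3 were at least 2-fold higher and 2 at least 2-fold lower with ABA in wild type. In ZFP3ox 5 were higher and 1 lower. The dehydrin gene RAB18 had the largest wild-type ratios among them, 5.40 and 5.26, with 4.34 and 2.27 in ZFP3ox. COR47 (-2.20 and -0.14) and RD22 (-1.13 and -2.13) were the lower genes in wild type. COR15A, ERD10, P5CS1, NCED3 and CYP707A1 were within 2-fold there, with mean ratios from -0.093 to 0.58. Column set 1 corresponded to about 2.62 to 4.08 Mreads per sample (M, mega), and its lowest 5% of features reached 3.40 to 7.31 RPKM, against 0.42 to 0.60 in set 2. HAI3 was the member closest to that floor in set 1, with 5.51 RPKM beside a floor of 3.40 in wild-type control and 6.99 beside 5.04 in ZFP3ox control. The authors used reads that matched several places, but of all 50-base stretches of the 8 transcripts compared at up to 2 mismatches, ABI1 and ABI2 shared 1 with each other and HAB1 shared 3 with AT1G17545. The other 5 members shared none with any PP2C gene. Only exons of annotated PP2C genes were compared, so matches of reads elsewhere in the genome were not tested. The ABI1 gene overlaps AT4G26070 on the opposite strand, and per the deposited settings reads were assigned by strand.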

How the data were processed

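RNA of 4 germinating seedling samples, 1 per combination of genotype and treatment, was depleted of ribosomal RNA and read as 50-base SOLiD sequences, per the labels' protocols. The authors deposited RPKM values per gene, with 2 columns for each sample. Their deposited list of settings names colour-space matching that respects strand, allows 2 mismatches and uses reads with up to 10 places of match. The sources used here name no program, aligner or build. A further 4 deposited tables hold selected genes (803 and 543 higher and lower with ABA, 225 and 165 higher and lower in ZFP3ox) with a score from the authors, a signed fold in which a lower value is written as a negative number. How those genes were selected is not stated in the labels.

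Features were matched to RefSeq TAIR10.1 (15391 by the locus code among their database names, 5722 by feature ID, 2326 by synonym, 83 by symbol, 253 by symbol and position, 157 unmatched, 10 shared codes set aside), which also gave names, lengths, coordinates and the upstream windows. No column lacked a sample. RPKM was multiplied by exon length and a trial depth: in column set 1, 66.4% to 70.3% of low values then lay within 0.1 of a whole read, against 20% without steps, and in set 2 21.3% to 21.9%, so its depth is unknown. No file held counts, so no counting interval is given.

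Ratios were differences of log2(RPKM + 1) within a column set, averaged over the sets, which understates changes of low genes. Genes with 1 RPKM or more in both columns of at least 1 sample were kept. A gene was counted past 2-fold in the mean ratio, or 4-fold for the difference of the ABA ratios. Averaged effects came from an additive limma model (limma 3.58.1, R 4.3.3) of genotype and treatment over the 4 samples, with 1 residual degree of freedom and 6.7 prior degrees of freedom; Benjamini-Hochberg adjustment ran over 22646 genes. The model was tested on simulated data. Its p-values set an effect against the departure from additivity, which holds any difference in ABA response between genotypes, and not against a spread between samples of a group. Other steps used Python 3.11.15, pandas 2.3.3, numpy 2.4.6 and matplotlib 3.10.9.

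The members and gene lists were chosen with earlier results of these data known. Genes other than the members were named by these rules: up to 3 per list and comparison that passed the fold size with 1 sign in both sets, any gene of the list of partners, and the nearest gene of each member. Some further genes of the lists were named after their values were seen. Alternatives were other pseudocounts, median-of-ratios scaling, no or a stricter filter, each column set alone, the 8 columns as libraries, and limma-trend.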

Additional observations from a re-analysis of the deposited data

Results flagged for a closer look

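HAI3 had a genotype ratio above 0 in both column sets without ABA and below 0 in both with ABA. HAB1 also changed sign with ABA in each set, but in opposite directions (0.022 to -0.22 in set 1 and -0.12 to 1.03 in set 2). The mean log2 ratio of HAI3, ZFP3ox over wild type, was 0.33 without ABA and -0.81 with ABA. The difference between these values was not tested, since each group holds 1 sample. After median-of-ratios scaling the mean ratios of HAI3 were 0.303 and -0.878, with the set 1 ratio without ABA at 0.041. Under that scaling HAI1 changed sign the other way in both sets. Its scaled ratios were -0.274 and -0.237 without ABA and 0.48 and 1.103 with ABA. Unscaled, the HAI1 mean went from -0.231 to 0.865, with the set 1 ratio without ABA at 0.004.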

How the results depend on the processing

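Among recounts of members under alternative settings, 48 stayed within 1.5 times the reported count and 5 did not. Median-of-ratios scaling gave 1 member called for the averaged ABA effect (HAI3) where 0 was reported, and it moved the median of all genes from 0.15 to 0.003 in wild type and from 0.212 to 0.021 in ZFP3ox. In ZFP3ox the 2 members past 2-fold with ABA became 1 (ABI2) with a pseudocount of 5 and 4 (ABI2, PP2CA, HAI1, HAI3) in column set 1 alone. In wild type, column set 1 alone gave 2 (PP2CA and HAI3) in place of 1. Between genotypes with ABA, column set 2 alone gave 3 (ABI2, HAB1, HAI1) in place of 0. The shares of all genes at least 2-fold higher in these single sets were 12.2% (wild type, set 1), 8.28% (ZFP3ox, set 1) and 4.43% (genotypes with ABA, set 2, with 10.6% past 2-fold either way). Limma effects changed sign, with no call on either side, for ABI1 genotype (0.233, set 2 alone), HAB1 genotype (-0.099, set 1 alone), PP2CA ABA (-0.17, set 2 alone) and HAB2 ABA (-0.151 in set 2 alone, -0.073 with median-of-ratios scaling). The cause of these shifts was not tested. No paired analysis was possible because each group holds 1 sample. No replicate could be left out for the same reason. Depth limits the weaker members: in column set 1 HAI3 rested on about 34 reads in wild-type control and 31 in ZFP3ox control.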
